A study of Mus musculus with 8 samples.

Results

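A set of 9 genes that encode secreted or granule-stored proteins of myeloid cells was followed in BaF3 cells after knockdown of Ybx1, each hairpin apart. They are Ccl6, Lcn2, Adam8, Prtn3, Mpo, Ctsg, Elane, Lyz2 and Timp1, 9 of the genes in a gene count table of 13588 genes and a table of TPM (transcript abundance scaled to a fixed library total) of 53465. The genes were picked by symbol on account of their changes after knockdown, which run in opposite directions, so those changes are given as a description with no test. The count table lists 8 of them, all of which passed the filter on low counts, and Elane was read from the TPM table alone. The 8 libraries came from BaF3, a mouse pro-B cell line normally dependent on interleukin-3, carrying Jak2 V617F, an activating mutation of the kinase, in every group. The cells expressed the Ybx1 hairpin sh1Ybx1 (2 libraries), the Ybx1 hairpin sh2Ybx1 (2 libraries) or the control hairpin shNT (4 libraries). Nothing in the labels tells separate cultures from repeated libraries of 1 culture, so the replicate spread behind each p-value may be technical.

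Neutrophil granules are filled in sequence as the cell matures. Primary (azurophil) granules of promyelocytes hold myeloperoxidase, encoded by Mpo, and the serine proteases neutrophil elastase (Elane), proteinase 3 (Prtn3) and cathepsin G (Ctsg). Secondary and tertiary granules, made later, hold lipocalin 2 (Lcn2), which binds bacterial siderophores, together with lysozyme and metalloproteases. Ccl6 is a mouse CC chemokine made by macrophages and granulocytes, Lyz2 encodes the lysozyme of mouse macrophages and granulocytes, Adam8 a membrane-bound metalloprotease of leukocytes, and Timp1 a secreted inhibitor of matrix metalloproteases. C/EBP factors and PU.1, encoded by Spi1, are known to drive granule genes during granulocyte development.

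The libraries held 22779437 to 37549926 counts in all. Ybx1, a Y-box gene whose product binds RNA through its cold shock domain, was lower with sh1Ybx1 (log2 fold change -3.62, SE 0.189, edgeR adjusted p = 0.000153) and with sh2Ybx1 (-3.08, SE 0.183, edgeR adjusted p = 0.000261), both against shNT. shNT replicate 4 stood apart on the second principal component (25.36% of the variance). The biological coefficient of variation was 0.076 for sh1Ybx1, 0.0616 for sh2Ybx1 and 0.324 for shNT, or 0.205 for shNT without replicate 4. Differences from shNT are therefore given with and without that library. The mean of both hairpins was compared with shNT, as was each hairpin, and these comparisons share the shNT libraries. A call for that hairpin mean can come from 1 hairpin. Of 36 list and marker genes called for the mean, 11 were also called with each hairpin, 16 with sh1Ybx1 and not sh2Ybx1, 8 with sh2Ybx1 and not sh1Ybx1, and Cxcl10 with neither. Those called with sh1Ybx1 only were Acta2, Ccl3, Ccr1, Cd63, Cebpe, Cpa3, Csf1r, Ctse, Ctss, Fcgr1, Gfi1b, Gp9, Man2b1, Nkg7, Serpina3f and Slc11a1. Those called with sh2Ybx1 only were Adam9, Ap3b1, Ccl17, Cebpg, Cma1, Ctsw, Glb1 and Lgmn. Whether the hairpins differ in these genes was tested by the comparison between hairpins, which is given where it passed. A range in brackets after a lost call is that of the log2 fold change over the fits with 1 library left out. Leaving out a hairpin library leaves 1 library for that hairpin, and fewer genes of all were then called in each comparison. Between hairpins hardly any were. A call lost in this way therefore does not single out its gene.

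Levels are given as CPM, counts scaled to the library size after TMM normalisation. With sh1Ybx1 both libraries lay above every shNT library for 5 of 8 genes (Ccl6, Lcn2, Adam8, Lyz2, Timp1) and below for 1 (Prtn3). Of all 13552 genes tested, 25% lay above and 21% below in the same way. With sh2Ybx1 they lay above for 4 (Ccl6, Adam8, Lyz2, Timp1) and below for 2 (Lcn2, Prtn3), against 25.6% and 23.9% of all genes. Mpo and Ctsg overlapped with shNT under both hairpins. The same members fell on the same sides without shNT replicate 4, where the shares of all genes were 34.0% above and 30.6% below for sh1Ybx1 and 33.6% and 32.0% for sh2Ybx1. By the edgeR test 19.2% of all genes were called with sh1Ybx1 and 19.9% with sh2Ybx1. Nothing is read from these counts, since the genes were chosen on this contrast. Lcn2 was the member on opposite sides with the hairpins, a placement (sh1Ybx1 above, sh2Ybx1 below) shared by 135 genes or 0.996% of all, while 0.457% had the reverse placement.

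**Figure D1:**
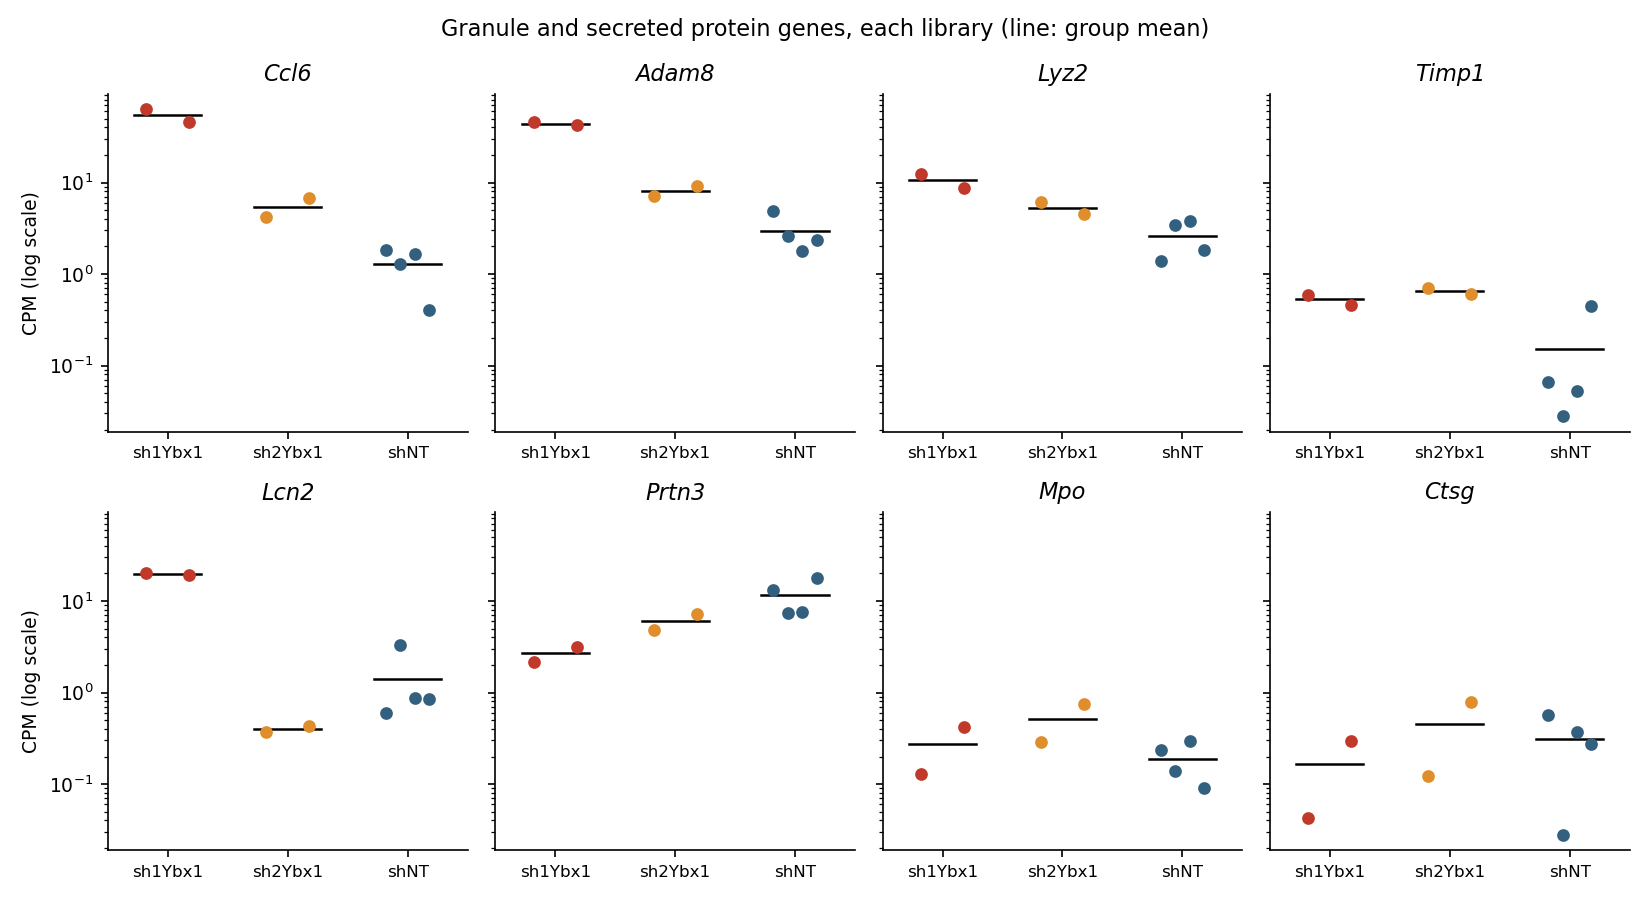
CPM of 8 genes in each library on a log scale, by hairpin, with a line at the group mean. Ccl6 reached 63.8 CPM with sh1Ybx1 and at most 1.84 CPM with shNT, Lcn2 stood apart from shNT in opposite directions with the hairpins, and Mpo and Ctsg stayed below 1 CPM in every library.

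Promoters of all 9 genes were matched in RefSeq tables (GRCm38.p6), as 250 bases before to 50 after the annotated start. The windows of Ccl6, Adam8, Lcn2 and Lyz2, which were all higher with sh1Ybx1, and of Prtn3, which was lower, are shown so that their letters can be compared. A set of 6 motifs was searched on both strands: TTNNGNAA (C/EBP core), GAGGAA (PU.1 core), TGANTCA (AP-1), GGGA and CC with 4 bases of any kind between them (NF-kB), TTCNNNGAA (STAT) and CCAAT (the core bound by Y-box and NF-Y proteins). Capitals mark matches, and in Ccl6, which has none, they mark a repeat looked for after the letters were read.
Ccl6, chr11:83593038-83593337, minus strand: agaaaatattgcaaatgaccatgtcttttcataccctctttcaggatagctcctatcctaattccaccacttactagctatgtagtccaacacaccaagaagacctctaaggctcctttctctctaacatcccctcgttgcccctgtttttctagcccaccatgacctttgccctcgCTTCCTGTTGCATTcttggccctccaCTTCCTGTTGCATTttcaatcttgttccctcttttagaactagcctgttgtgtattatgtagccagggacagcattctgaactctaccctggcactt
Adam8, chr7:139992513-139992812, minus strand: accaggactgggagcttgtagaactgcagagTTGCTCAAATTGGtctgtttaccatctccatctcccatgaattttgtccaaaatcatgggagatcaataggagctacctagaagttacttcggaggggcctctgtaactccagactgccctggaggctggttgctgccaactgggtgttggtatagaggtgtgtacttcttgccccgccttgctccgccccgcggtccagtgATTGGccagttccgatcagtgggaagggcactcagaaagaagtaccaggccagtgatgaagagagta
Lcn2, chr2:32387690-32387989, minus strand: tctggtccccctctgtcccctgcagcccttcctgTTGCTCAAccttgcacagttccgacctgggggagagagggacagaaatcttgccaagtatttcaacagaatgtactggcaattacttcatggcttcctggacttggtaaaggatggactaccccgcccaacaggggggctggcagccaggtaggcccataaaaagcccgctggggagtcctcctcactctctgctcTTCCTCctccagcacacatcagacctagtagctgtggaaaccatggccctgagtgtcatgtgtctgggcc
Lyz2, chr10:117282223-117282522, minus strand: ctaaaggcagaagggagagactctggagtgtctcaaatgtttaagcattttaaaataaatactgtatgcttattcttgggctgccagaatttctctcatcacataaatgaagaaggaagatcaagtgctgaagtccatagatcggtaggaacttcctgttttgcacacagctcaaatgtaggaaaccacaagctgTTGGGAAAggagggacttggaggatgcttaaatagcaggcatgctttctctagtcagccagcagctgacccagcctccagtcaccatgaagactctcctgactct
Prtn3, chr10:79879417-79879716, plus strand: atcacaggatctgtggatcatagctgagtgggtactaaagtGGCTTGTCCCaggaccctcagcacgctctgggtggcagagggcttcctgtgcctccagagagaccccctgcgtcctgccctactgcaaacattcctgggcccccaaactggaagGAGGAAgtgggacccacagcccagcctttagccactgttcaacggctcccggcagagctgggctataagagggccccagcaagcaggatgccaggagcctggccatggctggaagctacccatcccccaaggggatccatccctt
Lcn2 and Adam8 carry the same 8 letters, TTGCTCAA, a C/EBP core match on the strand opposite to the gene, at positions -216 to -209 from the start in Lcn2 and -219 to -212 in Adam8. In Adam8 a CCAAT match on that strand, read here as ATTGG, follows directly, and another lies at -17 to -13. Lcn2 also has a PU.1 core match at -20 to -15. Lyz2 has a C/EBP core match, TTGGGAAA, at -55 to -48. Prtn3 has a PU.1 core match at -95 to -90 and an NF-kB match at -209 to -200, and no C/EBP core. The Ccl6 window holds CTTCCTGTTGCATT, 14 bases, in 2 copies that begin at -73 and -47, and 3.98% of 32544 promoters hold a direct repeat at least as long. Over the 9 members, 4 have a C/EBP core (40.7% of all promoters), 5 a PU.1 core (28.1%), 3 a CCAAT (37.4%), 1 a STAT (8.33%), 1 an NF-kB (20.8%) and 0 an AP-1 match (7.79%). No match says only that these letters are not in this window.

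Ccl6 (ENSMUSG00000018927, chromosome 11, 83587882 to 83593087, minus strand, GRCm38) showed the widest separation from shNT among the 9 genes with sh1Ybx1. It was at 63.8 and 45.8 CPM with sh1Ybx1, 4.21 and 6.71 CPM with sh2Ybx1, and 1.84, 1.29, 1.67 and 0.407 CPM with shNT, from 1500 and 1097, 102 and 189, and 55, 46, 63 and 9 counts. The groups did not overlap and were ordered sh1Ybx1, sh2Ybx1, shNT. The log2 difference from shNT was 5.36 (SE 0.441) with sh1Ybx1 and 2.04 (SE 0.434) with sh2Ybx1. Without shNT replicate 4, which had the lowest Ccl6 level, it was 5.08 and 1.75. The level with sh1Ybx1 was 10.0 times that with sh2Ybx1. Ccl6 overlaps an annotated transcript of the other strand, E230016K23Rik, and reads of the pair may not be separated, the strand setting of the counting being unstated.

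Chemokine genes lie in a cluster around Ccl6, and 4 of the 10 genes that start within 150 kb of it could be tested. Across all genes tested 28.9% were called for the hairpin mean against shNT (edgeR adjusted p under 0.05), 14.8% higher and 14.2% lower. Ccl9, a chemokine that like Ccl6 binds the receptor Ccr1, starts 14.5 kb from Ccl6 toward lower coordinates. It was at 7.7 and 5.56 CPM with sh1Ybx1, 1.48 and 2.17 with sh2Ybx1, and 0.136 to 0.477 with shNT, and rose by a log2 fold change of 3.30 for the hairpin mean (SE 0.359, edgeR adjusted p = 0.0016). Ccl3, which encodes macrophage inflammatory protein 1-alpha and starts 56.3 kb away on the other side, was at 8.85 and 10.3 CPM with sh1Ybx1, 0.371 and 0.284 with sh2Ybx1, and 0.053 to 0.196 with shNT. It rose by 3.85 for the hairpin mean (SE 0.374, edgeR adjusted p = 0.00124), with 6.27 for sh1Ybx1 and 1.42 for sh2Ybx1, the second of which did not pass (edgeR adjusted p = 0.0662). The difference between hairpins in Ccl3 was 4.86 (SE 0.456, edgeR adjusted p = 0.00705), and that call was lost when any of the 4 hairpin libraries was left out (4.68 to 5.05). Ccl5, a T cell and platelet chemokine 62.6 kb from Ccl6, was at -0.05 (SE 0.47, edgeR adjusted p = 0.946). Ccl4 next to Ccl3 was listed at 0 TPM in all 8 libraries. Taf15, an RNA-binding protein gene at the edge of the window, fell by 0.49 (SE 0.15, edgeR adjusted p = 0.0405), a call lost without shNT replicate 2 or 3 or any hairpin library (-0.59 to -0.40).

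**Figure D2:**
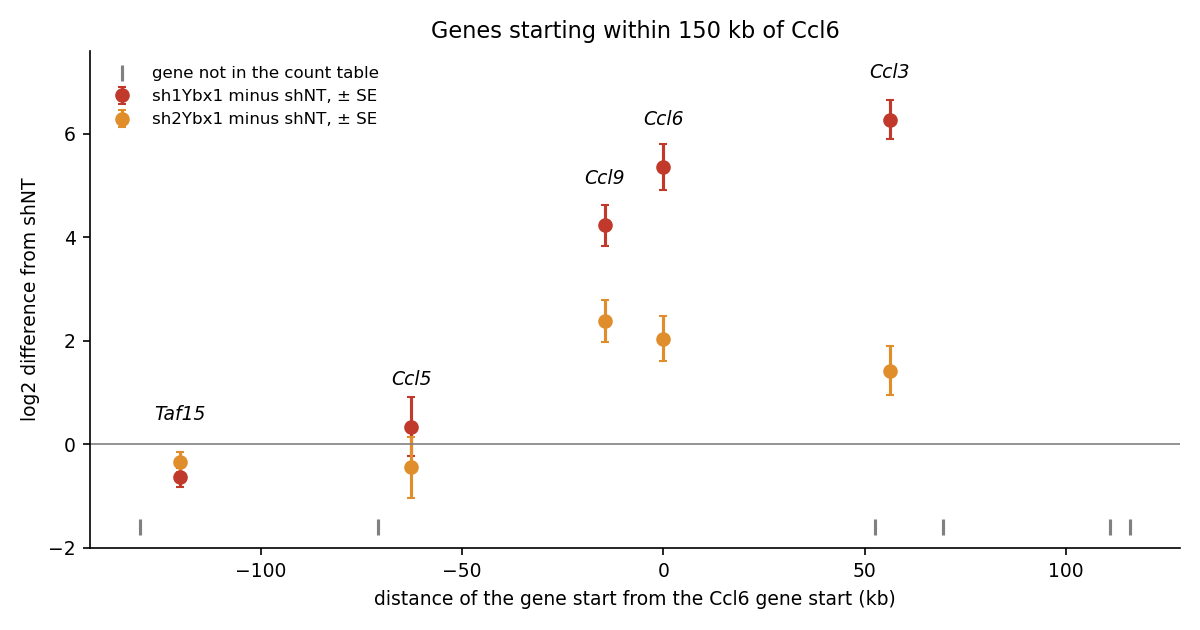
Log2 difference from shNT, with its SE, of the genes that start within 150 kb of Ccl6, against the distance between gene starts in kb (negative toward lower coordinates). Grey ticks are genes not in the count table. Ccl9, Ccl6 and Ccl3 stand at 4.23, 5.36 and 6.27 with sh1Ybx1 and at 2.38, 2.04 and 1.42 with sh2Ybx1, while Ccl5 lies near 0.

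Among 8 chemokine ligand genes other than Ccl6 that could be tested, 4 rose and 1 fell for the hairpin mean (median log2 fold change 0.39, against -0.0039 over all genes), and the same counts were found without shNT replicate 4. In that fit 50.3% of all genes were called, 23.6% higher and 26.7% lower, which is the background for every list count given without that library. The other 22 ligand genes of the list are in the TPM table alone, 20 of them at 0 TPM throughout. Beyond Ccl3 and Ccl9, the thymic chemokine Ccl25 rose by 0.82 (SE 0.176, edgeR adjusted p = 0.012) and Ccl17, a ligand of Ccr4, by 1.57 (SE 0.379, edgeR adjusted p = 0.0177). Ccl17 had only 9 and 18 counts with sh1Ybx1, 36 and 35 with sh2Ybx1 and 3 to 14 with shNT. It was called with sh2Ybx1 (2.2, edgeR adjusted p = 0.0143) and not with sh1Ybx1 (0.95, edgeR adjusted p = 0.187). Cxcl10, an interferon-induced chemokine named here after its values were seen, was the gene that fell (-1.88, SE 0.498, edgeR adjusted p = 0.0248), a call lost without shNT replicate 1 or any hairpin library (-2.22 to -1.64). Ccl25 lost its call without replicate 1 of either hairpin (0.70 to 0.92), and Ccl17 without shNT replicate 1, sh1Ybx1 replicate 2 or either sh2Ybx1 library (1.30 to 1.78). Of 7 chemokine receptor genes, Ccr1, whose product binds Ccl3, Ccl6 and Ccl9 among other chemokines, was the one called. It was at 32.6 and 27.2 CPM with sh1Ybx1, 8.29 and 9.55 with sh2Ybx1 and 1.25 to 6.25 with shNT, and rose by 2.36 (SE 0.441, edgeR adjusted p = 0.00773). With sh2Ybx1 alone Ccr1 did not pass (1.49, edgeR adjusted p = 0.0692). Without shNT replicate 4 the counts over the receptors were 2 higher and 2 lower.

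Lcn2 (ENSMUSG00000026822, chromosome 2, 32384633 to 32388252, minus strand) was high with the first hairpin and low with the second. It was at 20.1 and 19.1 CPM with sh1Ybx1, 0.371 and 0.426 CPM with sh2Ybx1, and 0.601, 3.27, 0.875 and 0.86 CPM with shNT, from 473 and 458, 9 and 12, and 18, 117, 33 and 19 counts. All sh1Ybx1 values were above and all sh2Ybx1 values below the shNT range, in which replicate 2 stood high. The log2 difference from shNT was 3.78 (SE 0.574) with sh1Ybx1 and -1.82 (SE 0.751) with sh2Ybx1, or 3.59 and -2.02 without shNT replicate 4. Without shNT replicate 2 it was 4.61 and -0.99. The summed CPM with sh2Ybx1 was 0.401, with an exact 95% Poisson interval of 0.248 to 0.612, and with shNT it was 1.49 (1.28 to 1.72). Of the 187 shNT counts 117 came from replicate 2, and without it the level was 0.78 (0.608 to 0.985), whose interval overlaps that of sh2Ybx1. These intervals cover counting error only. The TPM table gave 25.57 and 30.83 TPM with sh1Ybx1, 0 in both sh2Ybx1 libraries, and 1, 5.45, 0 and 0 with shNT.

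Lyz2 (ENSMUSG00000069516, chromosome 10, 117277331 to 117282321, minus strand) was higher with each hairpin. It was at 12.4 and 8.65 CPM with sh1Ybx1, 6.14 and 4.51 CPM with sh2Ybx1, and 1.4, 3.46, 3.76 and 1.81 CPM with shNT. The lowest sh2Ybx1 library, at 4.51 CPM, was close to the highest shNT library, at 3.76 CPM. The log2 difference from shNT was 2.0 (SE 0.397) with sh1Ybx1 and 1.02 (SE 0.406) with sh2Ybx1, or 1.83 and 0.84 without shNT replicate 4. Lyz1, its near-identical copy with which reads could be shared, was listed at 0 TPM in all 8 libraries.

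Of 11 other genes for secondary and tertiary granule proteins that could be tested, 2 rose and 0 fell for the hairpin mean (median 1.04), or 4 and 0 without shNT replicate 4 (median 0.83). Cyba, the p22phox subunit of the oxidase that makes superoxide, rose by 1.04 (SE 0.115, edgeR adjusted p = 0.00164), at 303.0 and 273.0 CPM with sh1Ybx1, 224.0 and 199.0 with sh2Ybx1 and 110.0 to 129.0 with shNT. Slc11a1, a metal transporter of phagosomes, rose by 1.16 (SE 0.256, edgeR adjusted p = 0.0131), a call lost without sh1Ybx1 replicate 1 or either sh2Ybx1 library (1.01 to 1.29), and with limma on log2(TPM + 1) its value was -0.35. Slc11a1 did not pass with sh2Ybx1 alone (0.55, edgeR adjusted p = 0.24). With sh1Ybx1 alone 6 rose and 0 fell (median 1.74, beside 11.2% of all genes called higher and 7.96% lower), and with sh2Ybx1 alone 1 rose and 0 fell (median -0.08, beside 10.4% and 9.45%). The 6 were Cyba, Slc11a1, the alarmin gene S100a8, the stefin genes Stfa1 and Stfa2, which belong to a family of near-identical copies, and Anxa1, and the last 4 were named after their values were seen. The sh1Ybx1 calls of all but Cyba were lost without sh1Ybx1 replicate 1. Their levels were low: S100a8 was at 0.596 and 0.71 CPM with sh1Ybx1, 0.0825 and 0.142 with sh2Ybx1 and at most 0.14 with shNT. The oxidase subunit gene Cybb and the granule genes Camp, Chil3 and Cd177 were listed at 0 TPM in every library. Olfm4, a marker of a neutrophil subset, was at 0.84 and 0.53 TPM with sh1Ybx1, 0.64 and 0.64 with sh2Ybx1 and 0 in all shNT libraries. Mmp8 and the arginase gene Arg1 were between 0.49 and 0.83 TPM in both sh1Ybx1 libraries and at 0 in the others, and Stfa3 was at 3.64 TPM in sh1Ybx1 replicate 1 alone. Of 6 iron and siderophore partner genes of Lcn2, 0 were called for the hairpin mean by edgeR, and 3 rose and 1 fell without shNT replicate 4. Other lists also had calls with 1 hairpin alone. With sh1Ybx1, 5 rose and 0 fell of 10 cathepsin genes, and 5 rose and 2 fell of 16 protease inhibitor genes. Chemokine ligands had 3 and 0 of 8, primary granule genes 3 and 0 of 19, transcription factors 3 and 2 of 13. In the same order sh2Ybx1 gave 2 and 1, 2 and 1, 3 and 0, 1 and 2, and 0 and 4.

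Prtn3 (ENSMUSG00000057729, chromosome 10, 79874476 to 79883174, plus strand) was the gene of the set that was lower with both hairpins. It was at 2.17 and 3.18 CPM with sh1Ybx1, 4.83 and 7.21 CPM with sh2Ybx1, and 13.3, 7.32, 7.61 and 17.8 CPM with shNT, from 51 and 76, 117 and 203, and 400, 262, 287 and 394 counts. The groups did not overlap, although the higher sh2Ybx1 library came close to shNT replicate 2. The log2 difference was -2.10 (SE 0.453) with sh1Ybx1 and -0.93 (SE 0.417) with sh2Ybx1. Without shNT replicate 4, the library with the highest Prtn3 level, it was -1.84 and -0.68. The 5' end of the annotated Prtn3 gene overlaps Plppr3 on the opposite strand, a phospholipid phosphatase-related gene that rose by 1.45 (SE 0.258, edgeR adjusted p = 0.0067), the direction opposite to that of Prtn3. The promoter window shown for Prtn3 begins at 79879417, downstream of this 5' end and inside the annotated gene.

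The other primary granule genes were close to the limit of detection. Mpo (ENSMUSG00000009350, chromosome 11, 87793581 to 87804413, plus strand) had 3 and 10 counts with sh1Ybx1, 7 and 21 with sh2Ybx1, and 7, 5, 11 and 2 with shNT. Ctsg (ENSMUSG00000040314, chromosome 14, 56099881 to 56102574, minus strand) had 1 and 7 counts with sh1Ybx1, 3 and 22 with sh2Ybx1, and 17, 1, 14 and 6 with shNT. In both genes the groups overlapped and libraries of the same hairpin differed several-fold. The summed CPM of Mpo was 0.274 (0.146 to 0.469) with sh1Ybx1, 0.534 (0.355 to 0.772) with sh2Ybx1 and 0.199 (0.129 to 0.294) with shNT, and that of Ctsg was 0.169 (0.0728 to 0.332), 0.477 (0.309 to 0.704) and 0.303 (0.214 to 0.415), each with its exact 95% Poisson interval. The intervals cover counting error only and not the spread between libraries. Elane (ENSMUSG00000020125, chromosome 10, 79886247 to 79888215, plus strand), which starts 11.8 kb from the 5' end of the annotated Prtn3 gene, was listed at 0 TPM in all 8 libraries, as was Cfd, another serine protease gene of that cluster. A listed 0 does not set a limit here: among protein-coding genes with 10 to 29 counts in a library, 50.8% were listed at 0 TPM, and 76.7% of those with 1 to 9. None of the 11 genes that start within 150 kb of Ctsg was in the fit.

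Of 19 other genes for primary granule proteins and their processing, 3 rose and 2 fell for the hairpin mean (median 0.07), or 5 and 5 without shNT replicate 4. Man2b1, the lysosomal alpha-mannosidase, was at 427.0 and 372.0 CPM with sh1Ybx1, 158.0 and 147.0 with sh2Ybx1 and 89.6 to 148.0 with shNT, and rose by 1.13 for the hairpin mean (SE 0.173, edgeR adjusted p = 0.00417). Cd63, a tetraspanin of azurophil granule membranes, rose by 0.75 (SE 0.129, edgeR adjusted p = 0.00604). With sh2Ybx1 alone neither passed (0.43 for Man2b1 and 0.31 for Cd63, edgeR adjusted p 0.168 and 0.193). Srgn, the proteoglycan that packs granule proteases, rose by 0.99 (SE 0.216, edgeR adjusted p = 0.0126), and Ap3b1, a subunit of the adaptor that sorts granule cargo, fell by 0.89 (SE 0.214, edgeR adjusted p = 0.0179). The calls for Srgn (0.81 to 1.09) and Ap3b1 (-1.02 to -0.67) were lost without sh1Ybx1 replicate 1 or either sh2Ybx1 library, and that for Ap3b1 also without sh1Ybx1 replicate 2. Glb1, the lysosomal beta-galactosidase, named after its values were seen, was at -0.10 with sh1Ybx1 (edgeR adjusted p = 0.71) and fell by 0.79 with sh2Ybx1 (edgeR adjusted p = 0.0182). Its call for the hairpin mean (-0.45, SE 0.133, edgeR adjusted p = 0.0373) was lost without shNT replicate 1 or 3 or any hairpin library (-0.57 to -0.39). Of 10 lysosomal cathepsin genes 4 rose and 1 fell (median 0.55), or 5 and 2 without shNT replicate 4. Ctss, cathepsin S of antigen-presenting cells, rose by 1.99 (SE 0.295, edgeR adjusted p = 0.00385), at 3.58 and 3.76 CPM with sh1Ybx1, 1.07 and 0.923 with sh2Ybx1 and 0.272 to 0.689 with shNT. With sh2Ybx1 alone Ctss did not pass (1.05, edgeR adjusted p = 0.0686). Ctso rose by 0.86 (edgeR adjusted p = 0.012) and Ctsw by 2.0 (edgeR adjusted p = 0.0213), while Lgmn, the lysosomal asparaginyl endopeptidase, fell by 0.81 (edgeR adjusted p = 0.0114). The Ctso call (0.71 to 0.97) was lost without replicate 1 of either hairpin, the Ctsw call (1.61 to 2.30) without these or sh2Ybx1 replicate 2, and the Lgmn call (-0.94 to -0.68) without sh1Ybx1 replicate 2 or sh2Ybx1 replicate 1. Ctse, an intracellular aspartic protease named after its values were seen, rose by 2.24 (SE 0.697, edgeR adjusted p = 0.0433), a call lost without shNT replicate 1 or 2 or any hairpin library (1.74 to 2.81). Ctsd, cathepsin D, differed between the hairpins by 2.36 (SE 0.384, edgeR adjusted p = 0.0462), at 1240.0 and 970.0 CPM with sh1Ybx1, 205.0 and 225.0 with sh2Ybx1 and 193.0 to 443.0 with shNT, a call lost when any library other than shNT replicate 4 was left out (2.17 to 2.53).

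Adam8 (ENSMUSG00000025473, chromosome 7, 139978932 to 139992562, minus strand) was higher with each hairpin. It was at 45.9 and 42.3 CPM with sh1Ybx1, 7.09 and 9.05 CPM with sh2Ybx1, and 4.91, 2.63, 1.78 and 2.35 CPM with shNT, from 1079 and 1013, 172 and 255, and 147, 94, 67 and 52 counts. The order was that of Ccl6, sh1Ybx1 above sh2Ybx1 above shNT, with no overlap. The log2 difference was 3.92 (SE 0.349) with sh1Ybx1 and 1.47 (SE 0.35) with sh2Ybx1, or 3.82 and 1.36 without shNT replicate 4. Adam8 overlaps Gm16201 on the other strand, which was at 2.17 and 2.55 CPM with sh1Ybx1, 0.577 and 1.14 with sh2Ybx1 and 0.159 to 1.2 with shNT. Of 7 other metalloprotease genes 0 rose and 2 fell for the hairpin mean, or 1 and 2 without shNT replicate 4. The 2 that fell encode sheddases of membrane proteins, Adam10 (-0.87, SE 0.129, edgeR adjusted p = 0.00381) and Adam9 (-0.84, SE 0.225, edgeR adjusted p = 0.0252), the second call being lost when any hairpin library was left out (-1.03 to -0.64).

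Timp1 (ENSMUSG00000001131, chromosome X, 20870166 to 20874735, plus strand) was at a few counts per library. It had 14 and 11 counts with sh1Ybx1, 17 and 17 with sh2Ybx1, and 2, 1, 2 and 10 with shNT, and was listed at 0 TPM throughout. The summed CPM was 0.527 (0.341 to 0.778) with sh1Ybx1, 0.649 (0.449 to 0.906) with sh2Ybx1 and 0.119 (0.0669 to 0.197) with shNT, with exact 95% Poisson intervals. These intervals cover counting error only and not the spread between libraries. The lowest hairpin library, at 0.46 CPM, was barely above shNT replicate 4 at 0.453 CPM. The log2 difference was 2.0 (SE 0.824) with sh1Ybx1 and 2.30 (SE 0.793) with sh2Ybx1, and 3.31 and 3.6 without shNT replicate 4. Timp1 lies inside Syn1, a synapsin gene of the other strand, which was at 0.979 and 1.0 CPM with sh1Ybx1, 1.2 and 1.06 with sh2Ybx1 and 0.267, 0.224, 0.186 and 0.724 with shNT. Syn1 rose by 1.66 for the hairpin mean (SE 0.431, edgeR adjusted p = 0.0227), a call lost when any library other than shNT replicate 4 was left out (1.42 to 2.19). In both genes shNT replicate 4 was the highest control, and how far reads of the pair were separated was not tested.

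Of 16 other protease inhibitor genes that could be tested, 2 rose and 2 fell (median 0.25), or 3 and 2 without shNT replicate 4. The cathepsin inhibitor Cstb rose by 0.99 (SE 0.149, edgeR adjusted p = 0.00399) and cystatin C, Cst3, by 0.53 (SE 0.12, edgeR adjusted p = 0.014). Serpinb6b, an intracellular serine protease inhibitor gene with close paralogs, fell by 1.32 (SE 0.273, edgeR adjusted p = 0.0108), and the serpin gene Serpina3f was called lower for the hairpin mean (-0.65, SE 0.142, edgeR adjusted p = 0.0124). Serpina3f was at -1.25 with sh1Ybx1 (edgeR adjusted p = 0.00501) and -0.06 with sh2Ybx1 (edgeR adjusted p = 0.822). The calls for Cst3 (0.44 to 0.58) and Serpina3f (-0.77 to -0.59) were lost without sh1Ybx1 replicate 1, the first also without either sh2Ybx1 library and the second without sh2Ybx1 replicate 2. Timp2, Timp3 and Timp4, the relatives of Timp1, were listed at 0 TPM throughout.

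**Figure D3:**
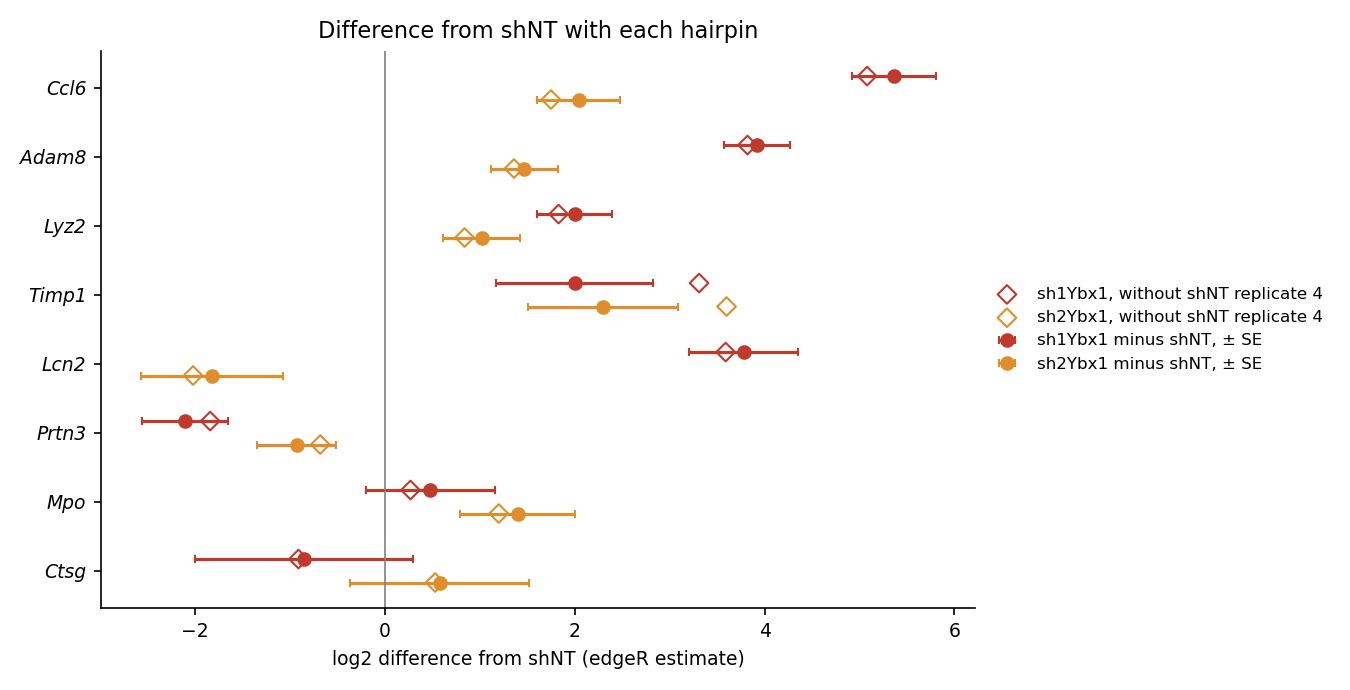
Log2 difference from shNT of 8 genes with each hairpin (filled points, bars ± SE) and without shNT replicate 4 (open diamonds). Ccl6, Adam8 and Lyz2 lie right of 0 with both hairpins, Prtn3 left of it, and Lcn2 at 3.78 with sh1Ybx1 and -1.82 with sh2Ybx1. Timp1 moves by more than its SE when shNT replicate 4 is left out.

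Per kilobase of exon, the order of levels changed between groups. With sh1Ybx1, Ccl6 was highest at 30.6 ± 7.09 CPM per kb (SD, n = 2), followed by Adam8 (9.51 ± 0.548), Lyz2 (8.01 ± 2.03) and Lcn2 (7.49 ± 0.268). Lyz2 lay within its spread of both neighbours, while the libraries of Adam8 and Lcn2 did not overlap, and Prtn3 was lower (1.54 ± 0.41). With sh2Ybx1, Lyz2 (4.05 ± 0.88), Prtn3 (3.47 ± 0.972) and Ccl6 (3.04 ± 0.986 CPM per kb) had overlapping ranges, above Adam8 (1.74 ± 0.298). With shNT, Prtn3 was highest at 6.66 ± 2.91 CPM per kb (SD, n = 4), then Lyz2 (1.98 ± 0.895), while Ccl6 (0.724 ± 0.355), Adam8 (0.629 ± 0.296) and Lcn2 (0.534 ± 0.477) lay within their spread. Timp1, Ctsg and Mpo stayed under 1 CPM per kb in each group, as did Lcn2 with sh2Ybx1. Prtn3 was above Ctsg and Mpo in each group.

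The deposited transcript table divides each gene's TPM among annotated transcripts, whose types were taken from GENCODE M21. For Ccl6 and Prtn3 most of the TPM was assigned to transcripts annotated as retaining an intron. In Ccl6 these took 80.2% of the mean TPM with sh1Ybx1, 78.2% with sh2Ybx1 and 84.7% with shNT. The shNT libraries were split, with 5.06 and 5.93 TPM retained and 0 protein-coding in replicates 1 and 3, and 0 retained and 1.04 and 0.94 TPM protein-coding in replicates 2 and 4. In Prtn3 they took 100% with sh1Ybx1, 91.3% with sh2Ybx1 and 83.3% with shNT. Protein-coding transcripts of Prtn3 were at 0 in both sh1Ybx1 libraries, sh2Ybx1 replicate 1 and shNT replicate 4. In the other libraries they were at 1.79 to 4.2 TPM. Lcn2 with sh1Ybx1 was divided otherwise, with 90.2% of its TPM in protein-coding transcripts. In Adam8 protein-coding transcripts were at 10.51 and 10.7 TPM and retained-intron transcripts at 16.37 and 5.12 TPM in the sh1Ybx1 libraries, so the larger type differed between these replicates. With shNT retained-intron transcripts of Adam8 were at 0 in all 4 libraries. These are estimates that split reads among overlapping transcripts, they differed between replicates in Ccl6, Adam8 and Prtn3, and no test of transcript use was made. In the authors' deposited table of 26983 splicing events, Adam8 had 1 event, an alternative 3' splice site at chromosome 7, 139991446 to 139992432, with a delta PSI of -0.06 (p = 0.973 and sign as in that table), and the other 8 genes had none. None of the 581 exon bins of the authors' deposited exon table lay in these genes.

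**Figure D4:**
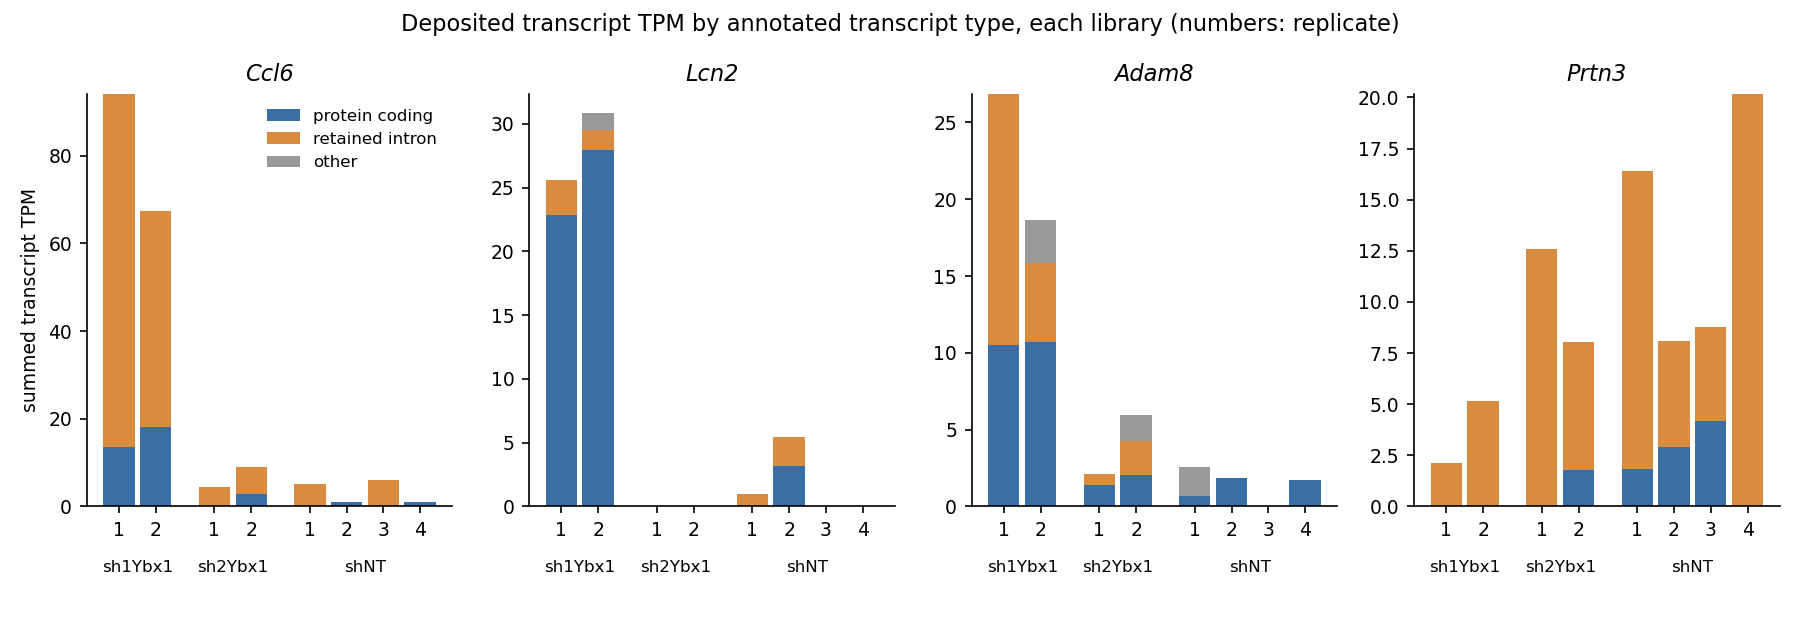
Deposited transcript TPM of 4 genes in each library, stacked by annotated transcript type, with the replicate number under each bar. Retained-intron transcripts form most of the bar in 6 of 8 libraries for Ccl6, the exceptions being shNT replicates 2 and 4, and in all 8 for Prtn3, while protein-coding transcripts do in Lcn2 with sh1Ybx1. The scale differs between genes.

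Transcription factor genes of granulocyte development were read beside these levels. Of 13 that could be tested 1 rose and 3 fell for the hairpin mean (median -0.22), or 2 and 6 without shNT replicate 4. Cebpe, the factor of secondary granule formation, was at 93.3 and 102.0 CPM with sh1Ybx1, 28.2 and 37.0 with sh2Ybx1 and 17.3 to 27.4 with shNT, and rose by 1.42 for the hairpin mean (SE 0.177, edgeR adjusted p = 0.00237). With sh2Ybx1 alone Cebpe did not pass (0.63, edgeR adjusted p = 0.0655). Cebpd was at 66.9 and 76.3 CPM with sh1Ybx1, 11.8 and 12.4 with sh2Ybx1 and 31.0 to 41.0 with shNT, above shNT with the first hairpin and below it with the second, as Lcn2 was. Its log2 fold change was 1.06 with sh1Ybx1 (SE 0.15, edgeR adjusted p = 0.00445) and -1.51 with sh2Ybx1 (SE 0.169, edgeR adjusted p = 0.00362). Between hairpins 0.465% of all genes were called higher and 0.059% lower with sh1Ybx1. Cebpd differed between them by 2.56 (SE 0.191, edgeR adjusted p = 0.00404) and Cebpe by 1.58 (SE 0.251, edgeR adjusted p = 0.0435). The Cebpd call between hairpins (2.47 to 2.66) was lost without sh1Ybx1 replicate 2 or either sh2Ybx1 library, and the Cebpe call (1.40 to 1.80) when any library other than shNT replicate 4 was left out. The Cebpd call of each hairpin against shNT was lost when either of its own libraries was left out (0.96 to 1.15 for sh1Ybx1 and -1.59 to -1.44 for sh2Ybx1). Spi1, named after its values were seen, was at 140 and 150 CPM with sh1Ybx1, 67.6 and 74.1 with sh2Ybx1 and 56.4 to 87.3 with shNT.

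Gata2, a factor of stem and mast cells, fell by 0.91 for the hairpin mean (SE 0.155, edgeR adjusted p = 0.00594) and Cebpg by 1.02 (SE 0.242, edgeR adjusted p = 0.017). Gfi1b, a transcriptional repressor that acts in the erythroid and megakaryocyte lineages, fell by 1.32 (SE 0.35, edgeR adjusted p = 0.025). The calls for Cebpg (-1.20 to -0.78) and Gfi1b (-1.57 to -1.0) were lost when any hairpin library was left out, and that for Gfi1b also without shNT replicate 3. Gfi1b did not pass with sh2Ybx1 alone (-1.03, edgeR adjusted p = 0.13), nor Cebpg with sh1Ybx1 alone (-0.92, edgeR adjusted p = 0.0698). Cebpa and Gfi1, which act in early granulocyte precursors, were listed at 0 TPM in all 8 libraries.

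**Figure D5:**
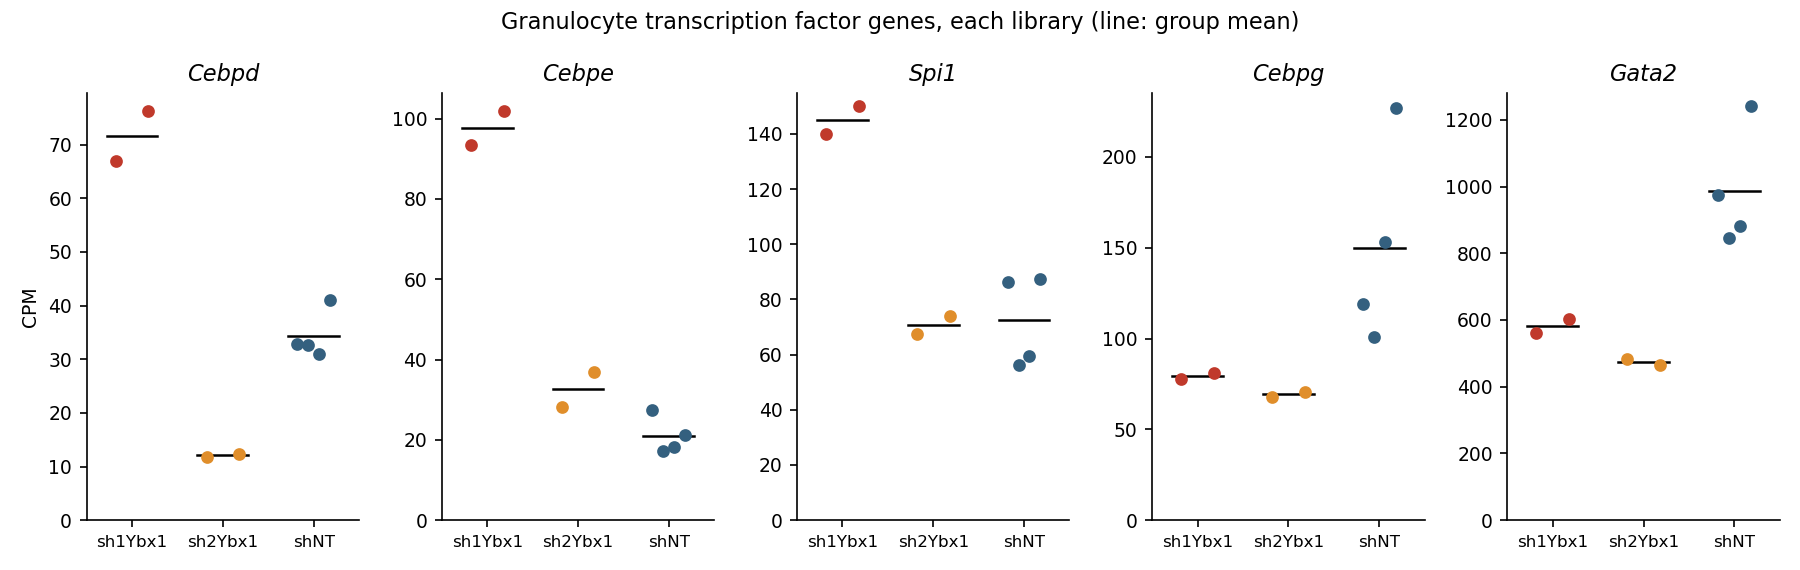
CPM of 5 transcription factor genes in each library, by hairpin, with a line at the group mean. Cebpd is above shNT with sh1Ybx1 and below it with sh2Ybx1, Cebpe is highest with sh1Ybx1, and Cebpg and Gata2 are lower with both hairpins.

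The genes with the most similar profiles were named by the root mean square difference over the 8 libraries of log2(CPM + 1), each centred on its shNT mean, among 10328 genes with a mean of at least 1 CPM. This is a description of profiles that share their libraries. Nearest to Ccl6 were Lilra6 (0.300), a leukocyte immunoglobulin-like receptor gene, at 40.2 and 32.1 CPM with sh1Ybx1, 1.81 and 2.13 with sh2Ybx1 and at most 0.434 with shNT, and Olr1 (0.465), a scavenger receptor for oxidised lipoprotein. Nearest to Adam8 were Pirb (0.209), an inhibitory receptor of myeloid and B cells, at 25.3 and 17.8 CPM with sh1Ybx1, 2.19 and 2.56 with sh2Ybx1 and 0.318 to 1.54 with shNT, and Tyrobp (0.374), the DAP12 adaptor. Nearest to Lcn2 were Tlr13 (0.572), a receptor for bacterial ribosomal RNA, and Gp6 (0.580), a platelet collagen receptor, both of which overlapped with shNT with sh2Ybx1. Prtn3 was most like Ero1lb (0.261), an oxidase of the endoplasmic reticulum, and the glycolytic Pfkp (0.270), and Lyz2 most like Phf11b (0.247) and Ggh (0.262), a gamma-glutamyl hydrolase. Mpo, Ctsg and Timp1 were nearest to Csrp1, Adap1 and F8, and Timp1 also to Rplp1, while their own largest shifts were 0.56, 0.46 and 0.58 on this scale.

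Markers of whole cell types were read for the same libraries. In bulk RNA more cells of a type and more RNA per cell cannot be told apart. Of 10 neutrophil markers 5 were in the count table and 0 were called for the hairpin mean by edgeR (1 without shNT replicate 4). With sh1Ybx1 alone 1 was called higher, S100a8, and with sh2Ybx1 alone 0 were called. The summed level of the 5 was 16.8 to 17.6 CPM with sh1Ybx1, 16.6 to 19.3 with sh2Ybx1 and 11.4 to 17.1 with shNT. Camp, Csf3r and Retnlg were listed at 0 TPM throughout. Mmp8 was at 0.49 and 0.61 TPM in the sh1Ybx1 libraries and Ly6g at 1.35 TPM in sh1Ybx1 replicate 1, both at 0 elsewhere. Of 12 macrophage and monocyte markers 5 were tested, of which 2 rose and 1 fell, with a summed level of 133.0 to 159.0 CPM with sh1Ybx1, 56.0 to 64.3 with sh2Ybx1 and 38.2 to 175.0 with shNT. Itgam, which encodes the CD11b integrin chain, was at 7.62 and 7.02 CPM with sh1Ybx1, 0.454 and 0.923 with sh2Ybx1 and 0.0279 to 0.272 with shNT. It rose by 4.34 (SE 0.512, edgeR adjusted p = 0.00193), or 4.94 without shNT replicate 4. Csf1r, the receptor of macrophage colony-stimulating factor, rose by 2.05 (SE 0.469, edgeR adjusted p = 0.0147) and the Fc receptor gene Fcgr1 was called lower for the hairpin mean (-1.35, SE 0.364, edgeR adjusted p = 0.0262). Csf1r was at 3.28 with sh1Ybx1 (edgeR adjusted p = 0.00534) and 0.82 with sh2Ybx1 (edgeR adjusted p = 0.344), and Fcgr1 at -2.57 with sh1Ybx1 (edgeR adjusted p = 0.0134) and -0.14 with sh2Ybx1 (edgeR adjusted p = 0.838). The Csf1r call (1.75 to 2.43) was lost without replicate 1 of either hairpin, and the Fcgr1 call (-1.72 to -1.11) without shNT replicate 1 or any hairpin library. Cd14, Mrc1, Marco, Ly6c2, C1qa and C1qb were listed at 0 TPM.

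Of 3 mast cell and basophil markers tested, the carboxypeptidase gene Cpa3 rose by 2.77 (SE 0.643, edgeR adjusted p = 0.0155) and the chymase gene Cma1 by 1.63 (SE 0.524, edgeR adjusted p = 0.0477). Cma1 had only 8 and 4 counts with sh1Ybx1, 12 and 19 with sh2Ybx1 and 1 to 6 with shNT. It did not pass with sh1Ybx1 alone (1.04, edgeR adjusted p = 0.3). The summed level of this list was 25.5 to 44.3 CPM with sh1Ybx1, 14.8 to 16.1 with sh2Ybx1 and 2.6 to 17.5 with shNT, and Mcpt8, Mcpt4, Tpsab1, Tpsb2 and Kit were listed at 0 TPM. The Cpa3 call (2.41 to 3.36) was lost without replicate 1 of either hairpin, and Cpa3 was at 3.36 without shNT replicate 1, while the Cma1 call (1.30 to 1.93) was lost without any library other than shNT replicate 4. With sh2Ybx1 alone Cpa3 did not pass (2.07, edgeR adjusted p = 0.074). Of 3 eosinophil markers 0 were called by edgeR, at a summed 58.9 to 66.4 CPM with sh1Ybx1, 89.7 to 92.5 with sh2Ybx1 and 40.5 to 122.0 with shNT. Of 12 pro-B and B cell markers Cd79a and Cd79b were in the count table and were not called, at a summed 38.5 to 39.1 CPM with sh1Ybx1, 39.5 to 43.3 with sh2Ybx1 and 31.6 to 44.3 with shNT. Igll1, Ebf1, Rag1, Rag2, Dntt and Il7r, genes of early B lineage cells, were listed at 0 TPM in all 8 libraries. Others of that list were above 0 in 1 or 2 libraries: Pax5 was at 2.21 TPM in sh1Ybx1 replicate 2, Vpreb1 at 3.15 TPM in sh2Ybx1 replicate 2, and Vpreb3 at 1.81 TPM in sh1Ybx1 replicate 1 and 1.09 TPM in shNT replicate 1.

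Among the remaining markers, Nkg7, a granule gene of T and NK cells, was at 0.383 and 0.627 CPM with sh1Ybx1, 8.29 and 6.96 with sh2Ybx1 and 3.02 to 10.6 with shNT. It fell with sh1Ybx1 (log2 fold change -3.69, edgeR adjusted p = 0.0115), was at 0.21 with sh2Ybx1 (edgeR adjusted p = 0.801), and was called lower for the hairpin mean (-1.74, SE 0.478, edgeR adjusted p = 0.0283), a call lost without shNT replicate 1 or any hairpin library (-2.02 to -1.44). Of 6 erythroid and megakaryocyte markers the platelet glycoprotein gene Gp9 fell by 1.24 (SE 0.232, edgeR adjusted p = 0.00775), and the summed level was 3870.0 to 4490.0 CPM with sh1Ybx1, 4600.0 to 5110.0 with sh2Ybx1 and 4010.0 to 5080.0 with shNT. With sh2Ybx1 alone Gp9 did not pass (-0.75, edgeR adjusted p = 0.0979). Acta2, smooth muscle actin and the one fibroblast marker in the count table, was at 82.6 and 101.0 CPM with sh1Ybx1, 3.22 and 2.88 with sh2Ybx1 and 1.81 to 5.28 with shNT, and was called higher for the hairpin mean (2.25, SE 0.304, edgeR adjusted p = 0.00302), with 4.71 for sh1Ybx1 and -0.21 for sh2Ybx1 (edgeR adjusted p = 0.725). The other 6 fibroblast markers were listed at 0 TPM. The part of any such cells in the levels of Ccl6, Lcn2, Adam8 and Lyz2 was not tested.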

How the data were processed

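RNA of 8 libraries was measured after poly(A) selection by short-read sequencing, per the labels' protocols. The authors deposited raw counts per gene, and STAR, featureCounts, limma and RSEM are named without roles or versions in the submitters' processing notes, with the builds GRCm38 and mm9. Gene and transcript TPM were deposited too, with RSEM-style identifier columns in the file headers. The authors' deposited splicing tables give a delta PSI and a p-value per event and an adjusted p-value per exon bin. Strand setting and filters are not given in the sources used here. FPKM values and pathway terms were not used.

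Counts were tested with edgeR 4.0.16 in R 4.3.3 (TMM, filterByExpr, quasi-likelihood, Benjamini-Hochberg adjusted p under 0.05) in 1 fit of 3 group means over all 8 libraries, which kept 13552 of 13588 genes. The 40 rows without a symbol stayed in the fit under their identifiers. The SE is the log2 fold change divided by the square root of F and is approximate. Alternatives used DESeq2 1.42.0, limma 3.58.1 on log2(TPM + 1) and log2(TPM + 0.1), other scaling and filters, a replicate block and each library left out, and those without shNT replicate 4 for lists and members were chosen after seeing the data. The fit was tested on simulated data.

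The members and gene lists (primary granule, secondary and tertiary granule, chemokine ligands, chemokine receptors, metalloproteases, protease inhibitors, cathepsins, granulocyte transcription factors, iron and lipocalin partners, cell type markers) were chosen with earlier results of these data known. Genes named by rule are, per list, up to 4 called for the hairpin mean and up to 2 called between hairpins by smallest p, and the 2 nearest profiles of each member. Numbered genes were left out of that rule. Neighbours and overlapping genes of members were named for their position, and the other genes after their values were seen. Gene positions and transcript types are from GENCODE M21 (GRCm38) and promoters from RefSeq (GRCm38.p6).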

Additional observations from a re-analysis of the deposited data

Results flagged for a closer look

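Lcn2 in shNT replicate 2, at 3.27 CPM, stood apart from the other shNT libraries at 0.601 to 0.875 CPM, with a gap of 0.897 of the group's range. Timp1 in shNT replicate 4, at 0.453 CPM, stood apart from the others at 0.0279 to 0.0667 CPM, with a gap of 0.909 of the range. About 1 in 20 groups of 4 passes the limit of this rule (Dixon) by chance.

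Lcn2 lay above shNT with sh1Ybx1 and below it with sh2Ybx1, a log2 difference between the hairpins of 5.60 that was not tested because Lcn2 was chosen for it. The hairpins differed by edgeR in Ccl3 (4.86, adjusted p = 0.00705), Acta2 (4.91, adjusted p = 0.00705), Cebpd (2.56, adjusted p = 0.00404), Ctsd (2.36, adjusted p = 0.0462) and Cebpe (1.58, adjusted p = 0.0435), sh1Ybx1 being higher in both libraries than both sh2Ybx1 libraries for each. The Acta2 call was lost when any of the 4 hairpin libraries was left out (4.76 to 5.05).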

How the results depend on the processing

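The number of genes called moved with the fit. By edgeR 3923 genes were called for the hairpin mean, 2601 for sh1Ybx1, 2692 for sh2Ybx1 and 71 between hairpins. Leaving out 1 library gave 1273 to 6795, 156 to 5902, 40 to 5843 and 0 to 1666 in the same order of comparisons, with all 4 highest counts without shNT replicate 4. The count of 0 between hairpins came without sh2Ybx1 replicate 1 (864 genes at an unadjusted edgeR p under 0.05) and without sh2Ybx1 replicate 2 (938), and DESeq2 on all 8 libraries gave 791 (545 higher, 246 lower, against 63 and 8 by edgeR). With only the compared groups in the fit, edgeR called 1372 genes for sh1Ybx1, 1349 for sh2Ybx1 and 5620 between hairpins. Limma on log2(TPM + 1) called 245, 120, 55 and 22 genes, and on log2(TPM + 0.1) 182, 84, 65 and 32. With the replicate number as a block 6653, 6143, 6087 and 3060 genes were called. Same-numbered libraries deviated together from their group means by r of only -0.0118 to 0.197. With 2 libraries a hairpin these deviations mirror each other, so pairing by number was neither shown nor excluded. The numbers used are those of the titles, and sample descriptions number the sh2Ybx1 libraries 2 and 3, which gave r of -0.197 to 0.157. Another size factor and no filter on low counts kept all 4 counts within 1.5 times. The cause of these shifts was not tested. Ccl6, Lcn2, Adam8, Prtn3 and Lyz2 kept the sign of both hairpin differences in 15 of 15 alternatives, and Timp1 in 13 of 13. All were picked for these changes and had no hairpin library within the shNT range, so a kept sign adds no support. Their sizes moved, with Prtn3 over -1.29 to -0.28 and Lcn2 over -2.31 to -0.92 with sh2Ybx1. Timp1 with sh1Ybx1 ran from 1.59 to 3.4. Mpo with sh1Ybx1 and Ctsg with sh2Ybx1 each kept their sign in 11 of 12. Over 33 named genes tested for the hairpin mean, 338 alternative values kept the call, 112 lost it and 2 reversed, both for Slc11a1 with limma (-0.35 and -0.51). Mpo, Ctsg and Timp1 rest on at most 22 counts a library.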
